A study of Mus musculus with 18 samples.

Results

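The genes described here are 44 mouse genes whose products copy DNA, measured in TC1 tumour cells that carried a guide RNA against Nat10 or against Myc. They were taken by gene symbol and matched by Ensembl identifier, which was the same in every expression table for all 44. The tables list 17379 genes for sgNAT10 mRNA, 10974 genes for Ribo-seq and 28738 genes for sgMYC mRNA. All 44 were present in each and all 44 passed the filters on low values, so none was lost before testing. By role they comprise 11 genes of origin licensing, 8 of origin firing, 8 of DNA polymerases and primase, 6 of the sliding clamp and its loader, 3 of the single-strand binding protein RPA, 5 of strand maturation and chromatin assembly, and 3 of nucleotide supply.

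TC1 is described in the labels as a mouse fibrosarcoma line, and the library names carry the prefix Tcell. The edited lines carried a guide against Nat10 (sgNAT10), the enzyme that acetylates cytidines in RNA, or a guide against Myc (sgMYC), a transcription factor of cell growth. Both were compared with wild-type cells (WT), each with WT libraries of its own set. The sgNAT10 set held 2 sgNAT10 and 2 WT libraries of mRNA, and the same numbers of Ribo-seq, which sequences the fragments protected by ribosomes. The sgMYC set held 3 sgMYC and 3 WT libraries of mRNA. Acetylated RNA was precipitated (acRIP-seq) with 1 precipitate and 1 input library for sgNAT10 and 1 of each for WT. The labels name no control guide, clone or pool, and do not say whether replicates were separate cultures, so p-values measure the spread between these libraries, which may be technical.

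DNA replication starts in G1 phase, when the origin recognition complex, Cdc6 and Cdt1 load the MCM2-7 helicase on origins. In S phase the Cdc7-Dbf4 kinase, Cdc45, Mcm10 and GINS turn the loaded helicase on. DNA polymerase alpha with primase then starts each strand, and polymerases epsilon and delta extend it on the clamp PCNA, which replication factor C loads. Most of these genes are transcribed at the entry into S phase under E2F factors, and Myc is known to promote that entry in many proliferating cells.

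Nat10 itself, the target of the first guide, had 3.59 and 3.95 FPKM in sgNAT10, against 5.36 and 5.302 FPKM in WT (log2 fold change -0.41, SE 0.0593, adjusted p = 0.00266 by limma). In Ribo-seq Nat10 had 8.33 and 6.602 FPKM in sgNAT10, against 11.9 and 17.4 FPKM in WT (-0.87, adjusted p = 0.193). Myc, the target of the second guide, had 21.1, 20.9 and 34.1 FPKM in sgMYC, against 64.8, 61.6 and 70.8 FPKM in WT (log2 fold change -1.37, SE 0.219, adjusted p = 0.011 by edgeR), so its level in sgMYC replicate 3 lay between those of the other sgMYC libraries and WT. Myc mRNA was also lower in the sgNAT10 set, at 39.98 and 40.9 FPKM in sgNAT10, against 115 and 117 FPKM in WT (-1.49, adjusted p = 9.41e-06). Counts summed to between 57363229 and 65768024 per sgMYC library and between 51875052 and 55900895 per WT library of that set. Reads recovered from the FPKM values (fragments scaled to gene length and to the library's total) summed to between 11067554 and 14420979 for mRNA and between 1514086 and 3148083 for Ribo-seq. Replicates of the sgNAT10 mRNA set differed little beyond read sampling, with 1.27% of genes in sgNAT10 and 0.648% in WT past a limit that sampling alone exceeds in 0.1%. Replicates of the Ribo-seq set differed more, with 21.6% of genes in sgNAT10 and 34.5% in WT past the same limit. The mesenchymal marker Vim was at 420.6 FPKM or more in sgNAT10 and 247.6 or more in WT of the same set, while Col1a1 was at most 0.460 in every mRNA library of both sets. Epithelial markers summed to at most 0.862 FPKM in the mRNA libraries of both sets, and to more than that in each Ribo-seq library. T cell markers were not listed in the sgNAT10 table and summed to at most 0.0330 FPKM in the sgMYC set. Thy1, another mesenchymal marker, had 42.6 and 40.9 FPKM in sgNAT10, against 1.04 and 1.35 FPKM in WT. At an adjusted p under 0.05 by limma, the mesenchymal markers Col1a2 and Pdgfra were also higher in sgNAT10 mRNA, while Col3a1 and Pdgfrb were lower. Dcn and Col1a1 did not pass the filter on low values. Of the macrophage markers, Cd14 was higher in sgNAT10 mRNA by the same test, while Cd68 and Csf1r did not pass it. The part of these markers in the results was not tested.

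In sgNAT10 mRNA the replication genes were called in both directions, at shares near those of all genes. Among the 44, 13 were higher and 14 were lower in sgNAT10 at an adjusted p under 0.05 (limma on log2(FPKM + 1), Benjamini-Hochberg over 11735 genes), and 17 were not called. Those 27 calls are 61.4% of the 44, beside 63.3% of all genes tested, so the share called was near that of any gene. The share called higher over all genes was 33.7% and the share called lower was 29.6%. The median log2 fold change of the 44 was 0.027, beside 0.014 over all genes, and the median size of the change was 0.21, beside 0.27. The groups did not overlap in 34 genes, 19 with both sgNAT10 libraries above both WT libraries and 15 with both below, beside 43.3% and 39.0% of all genes. In bulk RNA, fewer cells in S phase and less RNA per cell cannot be told apart.

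**Figure D1:**
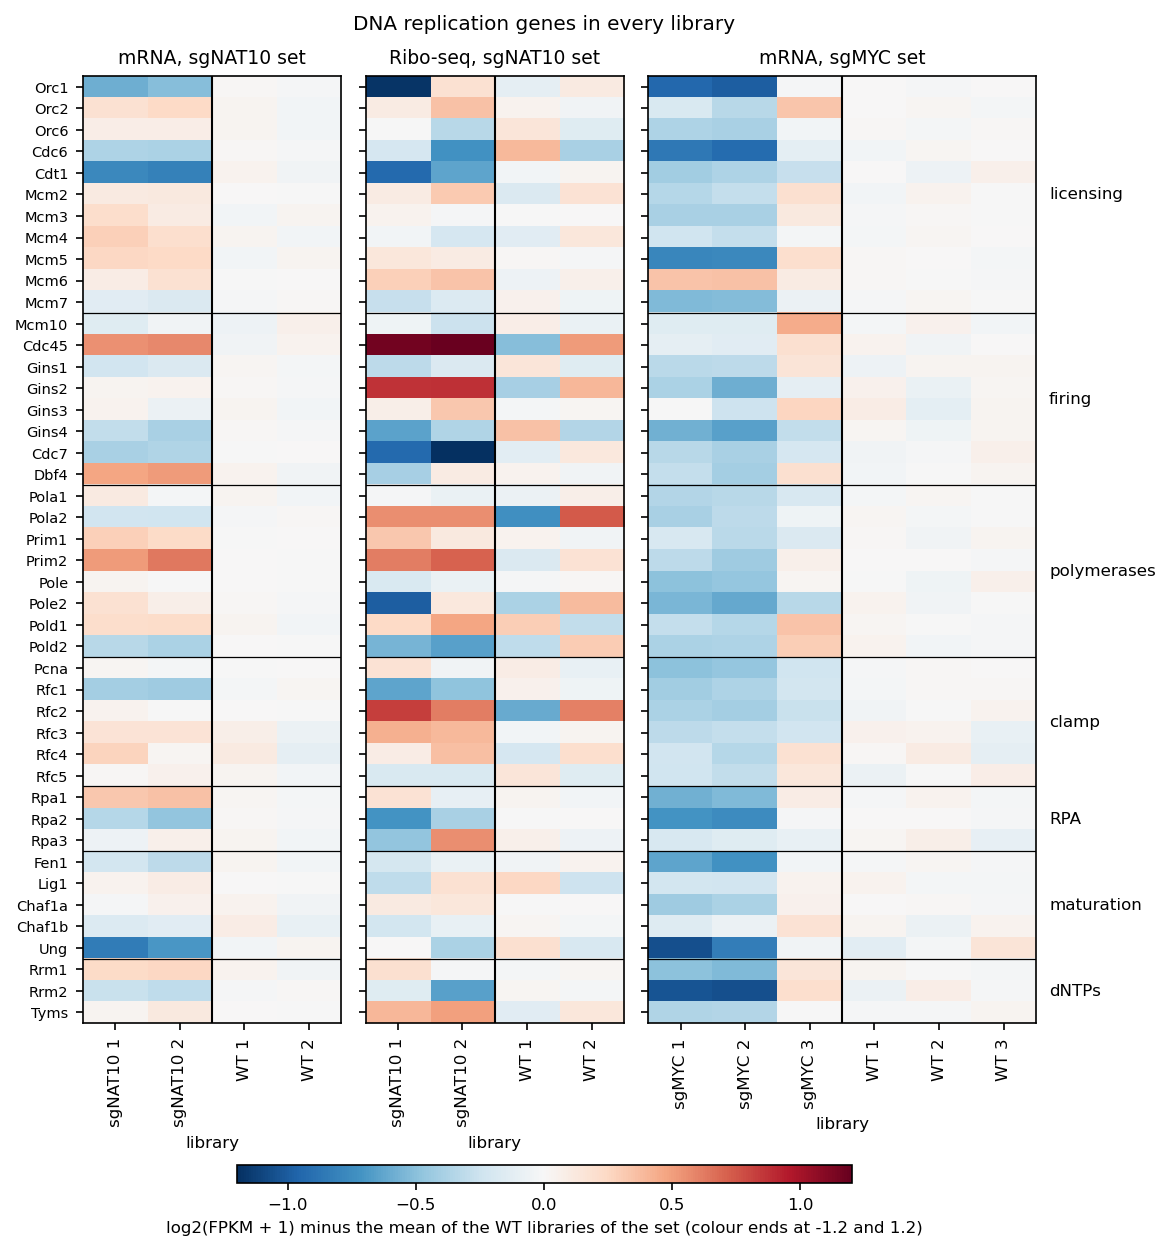
Level of each of the 44 DNA replication genes in every library, as log2(FPKM + 1) minus the mean of the WT libraries of the same set, with edited libraries left of WT in each panel and genes grouped by role (RPA, single-strand binding; maturation, strand maturation and chromatin assembly; dNTPs, nucleotide supply). In the sgNAT10 mRNA panel both edited libraries show the same mix of red (higher) and blue (lower), while in the sgMYC panel replicates 1 and 2 are blue for nearly every gene and replicate 3 is not.

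Among licensing genes Cdt1, Orc1 and Cdc6 fell, while most helicase subunits rose. Cdt1, which brings the MCM2-7 helicase to origins, had 24.4 and 23.7 FPKM in sgNAT10, against 43.6 and 41.2 FPKM in WT (log2 fold change -0.80, SE 0.0406, adjusted p = 8.3e-05 by limma). Both sgNAT10 libraries lay well below both WT libraries. Orc1, the largest subunit of the origin recognition complex, had 4.103 and 4.38 FPKM in sgNAT10, against 6.74 and 6.59 FPKM in WT (log2 fold change -0.55, SE 0.0522, adjusted p = 0.000595), again with no overlap. Cdc6, the ATPase that recruits the helicase together with Cdt1, also fell (-0.38, adjusted p = 0.00111). Mcm2, Mcm3, Mcm4, Mcm5 and Mcm6 rose by 0.11 to 0.25 on the log2 scale, and Mcm7 fell (-0.16, adjusted p = 0.0088). Mcm5 had 55.9 and 55.7 FPKM in sgNAT10, against 45.9 and 47.9 FPKM in WT (log2 fold change 0.25, SE 0.0337, adjusted p = 0.0022), and the groups did not overlap. In the origin recognition complex Orc2 rose (0.21, adjusted p = 0.0069), while Orc6 was at 0.08 and was not called. Of the 11 licensing genes 6 rose, 4 fell and 1 was not called. The smaller MCM calls depended on the settings, since that of Mcm3 was lost under 7 of 11 alternatives, of Mcm2 under 7, of Mcm6 under 5 and of Mcm7 under 1, with the direction kept in each.

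Promoters of the licensing genes are shown because genes that moved in opposite directions carry the same kind of letters there. RefSeq promoter sequences (build GRCm38.p6, 250 bases before to 50 after the annotated start) were matched by symbol for 37 of the 44, with 44 entries among them. Prim2, Gins1, Gins2, Gins4, Mcm4, Pole and Rfc2 had no entry in the table used. The letters TTTGGCGC, TTTCGCGC, TTTCCCGC and TTTGCCGC, which resemble sites of E2F factors, were searched on both strands. At least 1 of them occurred in 13 of the 44 replication gene promoters (29.5%), beside 2.26% of 32851 promoters of the same length. The replication gene promoters were also richer in G and C, with a median of 61.3% beside 52.7% over all promoters, and the part of base composition in the share was not tested. In the lines below, capitals mark these E2F-type letters on either strand, and overlapping matches form 1 run of capitals. The sequences come from chr8:122567765-122568064 (+ strand) for Cdt1, chr4:108579204-108579503 (+ strand) for Orc1, chr5:138171834-138172133 (- strand) for Mcm7, chr8:75109259-75109558 (+ strand) for Mcm5 and chr1:128359656-128359955 (- strand) for Mcm6. The first 3 genes were lower in sgNAT10 mRNA, and Mcm5 and Mcm6 were higher.
Cdt1: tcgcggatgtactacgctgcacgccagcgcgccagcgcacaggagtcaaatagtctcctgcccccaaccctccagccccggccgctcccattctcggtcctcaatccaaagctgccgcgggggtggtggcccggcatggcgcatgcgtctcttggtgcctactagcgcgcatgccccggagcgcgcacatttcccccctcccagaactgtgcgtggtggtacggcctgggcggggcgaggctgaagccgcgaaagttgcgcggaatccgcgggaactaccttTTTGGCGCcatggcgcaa
Orc1: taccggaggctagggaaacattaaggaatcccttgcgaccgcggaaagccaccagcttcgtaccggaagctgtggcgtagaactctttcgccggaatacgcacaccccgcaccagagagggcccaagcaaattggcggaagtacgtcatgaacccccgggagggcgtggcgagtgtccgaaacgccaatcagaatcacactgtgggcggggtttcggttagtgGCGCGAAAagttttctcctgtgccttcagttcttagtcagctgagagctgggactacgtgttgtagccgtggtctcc
Mcm7: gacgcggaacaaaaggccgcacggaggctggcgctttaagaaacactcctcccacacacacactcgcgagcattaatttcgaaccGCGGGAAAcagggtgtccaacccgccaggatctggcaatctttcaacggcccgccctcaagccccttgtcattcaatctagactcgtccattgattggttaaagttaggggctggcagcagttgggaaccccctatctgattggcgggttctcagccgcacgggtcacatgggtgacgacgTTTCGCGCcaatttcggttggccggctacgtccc
Mcm5: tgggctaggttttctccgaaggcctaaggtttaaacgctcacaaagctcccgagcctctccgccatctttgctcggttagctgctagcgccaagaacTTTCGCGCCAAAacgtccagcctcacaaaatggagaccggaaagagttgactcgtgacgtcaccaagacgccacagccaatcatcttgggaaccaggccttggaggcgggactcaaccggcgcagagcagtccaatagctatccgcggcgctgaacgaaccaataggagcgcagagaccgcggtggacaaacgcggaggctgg
Mcm6: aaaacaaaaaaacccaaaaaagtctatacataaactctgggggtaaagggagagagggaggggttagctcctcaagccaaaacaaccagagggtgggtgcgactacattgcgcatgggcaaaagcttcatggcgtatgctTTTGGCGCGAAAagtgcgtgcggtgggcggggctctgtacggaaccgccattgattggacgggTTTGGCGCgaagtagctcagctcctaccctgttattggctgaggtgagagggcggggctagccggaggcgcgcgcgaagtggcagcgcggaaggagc
Cdt1 has a single match, 33 bases after the start, and Orc1 a single match on the opposite strand, 27 bases before it. Mcm6 has 3 matches and Mcm5 has 2, and in both genes a pair on opposite strands overlaps. Of the 13 genes with a match 4 rose, 4 fell and 5 were not called in sgNAT10 mRNA (median log2 fold change 0.064), and of the 24 with a promoter but no match 7 rose, 8 fell and 9 were not called (0.012). A match in these letters describes the sequence, not binding.

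**Figure D2:**
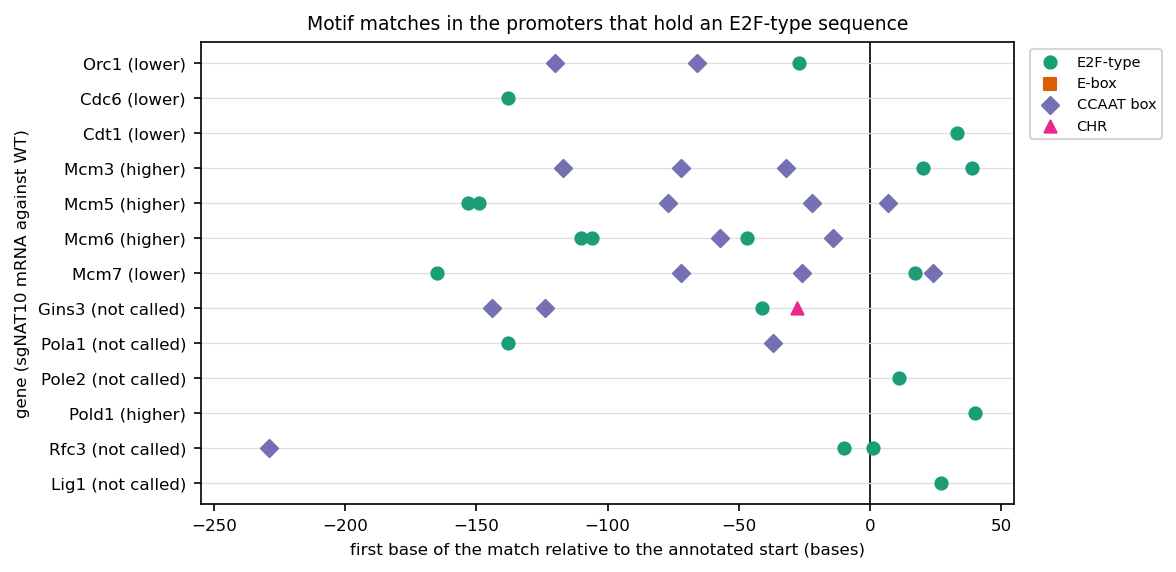
Position of motif matches in the promoters of the 13 replication genes that hold an E2F-type sequence, with the first base of each match in bases relative to the annotated start and the sgNAT10 mRNA call beside each gene. Genes called higher, lower and not called all carry the E2F-type letters, and these lie on both sides of the start.

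Other letters were searched in the same way. The E-box CACGTG, which MYC and other factors bind, occurred in 7 of the 44 promoters (15.9%) beside 7.15% of all, in Chaf1a, Fen1, Lig1, Pola2, Rfc1, Rpa1 and Tyms. Of these 7, 1 rose (Rpa1), 3 fell (Fen1, Pola2 and Rfc1) and the other 3 were not called in sgNAT10 mRNA. CCAAT occurred in 56.8% of the replication gene promoters, beside 37.4% of all. TTTGAA, the letters of the cell cycle homology region, occurred in 18.2% beside 17.9%.

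Origin firing genes were also called in both directions. Cdc45, which joins MCM2-7 and GINS to form the active helicase, had 18.5 and 18.96 FPKM in sgNAT10, against 11.96 and 12.8 FPKM in WT (log2 fold change 0.56, SE 0.045, adjusted p = 0.000328 by limma). Dbf4, the activating subunit of the Cdc7 kinase, had 14.6 and 15.01 FPKM in sgNAT10, against 10.6 and 9.93 FPKM in WT (log2 fold change 0.49, SE 0.0464, adjusted p = 0.000587). For both genes each sgNAT10 library was above each WT library. Cdc7, the catalytic subunit that Dbf4 activates, moved the other way, with 4.47 and 4.58 FPKM in sgNAT10, against 6.15 and 6.17 FPKM in WT (log2 fold change -0.38, SE 0.0465, adjusted p = 0.00151). Among the 4 GINS subunits Gins4 (-0.34) and Gins1 (-0.20) fell, and Gins2 (0.04) and Gins3 (-0.02) were not called. The Gins1 call was lost without WT replicate 1. Mcm10, which takes part in helicase activation, was at -0.09 and not called.

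The primase subunits and the other polymerase subunits did not move together. Prim2, the large primase subunit, had 10.2 and 11.2 FPKM in sgNAT10, against 6.89 and 6.83 FPKM in WT (log2 fold change 0.57, SE 0.055, adjusted p = 0.000619 by limma). Prim1, the catalytic primase subunit, rose too (0.26, adjusted p = 0.00304). Pola2, the second subunit of polymerase alpha, fell (-0.24, adjusted p = 0.00283), and the catalytic subunit gene Pola1 was at 0.04 and not called. Pold2, the accessory subunit of polymerase delta, had 41.5 and 40.2 FPKM in sgNAT10, against 52.7 and 52.7 FPKM in WT (log2 fold change -0.36, SE 0.0314, adjusted p = 0.000443). Its sgNAT10 libraries were both lower than both WT libraries. The catalytic subunit gene Pold1 rose (0.21, adjusted p = 0.00722). Both subunits of polymerase epsilon, Pole (0.02) and Pole2 (0.13), were not called.

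Among the clamp genes 1 of 6 was called. Rfc1, the large subunit of the clamp loader, had 19.5 and 19.2 FPKM in sgNAT10, against 25.8 and 26.6 FPKM in WT (log2 fold change -0.42, SE 0.0346, adjusted p = 0.000378 by limma), with no overlap between the groups. Rfc3, a small subunit of the loader, had 9.06 and 9.05 FPKM in sgNAT10, against 8.39 and 7.57 FPKM in WT and did not pass (0.16, adjusted p = 0.0536). Pcna, the clamp itself and the most abundant of the 44 mRNAs per length in this set, had 101 and 98.3 FPKM in sgNAT10, against 99.7 and 99.8 FPKM in WT. Its log2 fold change was 0.00 (SE 0.0294), and the groups overlapped.

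RPA, which coats single-stranded DNA, had its subunits split. Rpa1, the large subunit, had 28.6 and 29.3 FPKM in sgNAT10, against 23.2 and 22.3 FPKM in WT (log2 fold change 0.34, SE 0.0366, adjusted p = 0.000954 by limma). Rpa2, the middle subunit, had 14.6 and 13.3 FPKM in sgNAT10, against 18.9 and 18.6 FPKM in WT (log2 fold change -0.40, SE 0.0536, adjusted p = 0.00193). Neither gene's groups overlapped, and Rpa3 was at 0.00.

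Of the 5 genes of strand maturation and chromatin assembly 2 fell. Ung, the glycosylase that removes uracil from DNA, had 3.18 and 3.59 FPKM in sgNAT10, against 6.28 and 6.65 FPKM in WT (log2 fold change -0.77, SE 0.0673, adjusted p = 0.000448 by limma). Fen1, the endonuclease that trims Okazaki fragments, had 19.98 and 18.6 FPKM in sgNAT10, against 23.97 and 22.999 FPKM in WT (log2 fold change -0.27, SE 0.0474, adjusted p = 0.00533). In both genes the sgNAT10 libraries lay below WT without overlap. Lig1, the ligase that seals those fragments, was at 0.06, and the chromatin assembly genes Chaf1a and Chaf1b were at 0.02 and -0.15, none of them called.

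Nucleotide supply was split between the subunits of ribonucleotide reductase, the enzyme that makes deoxyribonucleotides. Rrm1, the large subunit, had 22.5 and 22.7 FPKM in sgNAT10, against 19.6 and 18.4 FPKM in WT (log2 fold change 0.24, SE 0.0424, adjusted p = 0.00559 by limma). Rrm2, the small subunit, had 51.96 and 50.6 FPKM in sgNAT10, against 62.2 and 63.6 FPKM in WT (log2 fold change -0.29, SE 0.031, adjusted p = 0.0009). The groups of both genes stood apart, in opposite directions. Tyms, which makes thymidylate, had 10.1 and 10.8 FPKM in sgNAT10, against 9.87 and 9.85 FPKM in WT and was not called (0.08, adjusted p = 0.206).

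**Figure D3:**
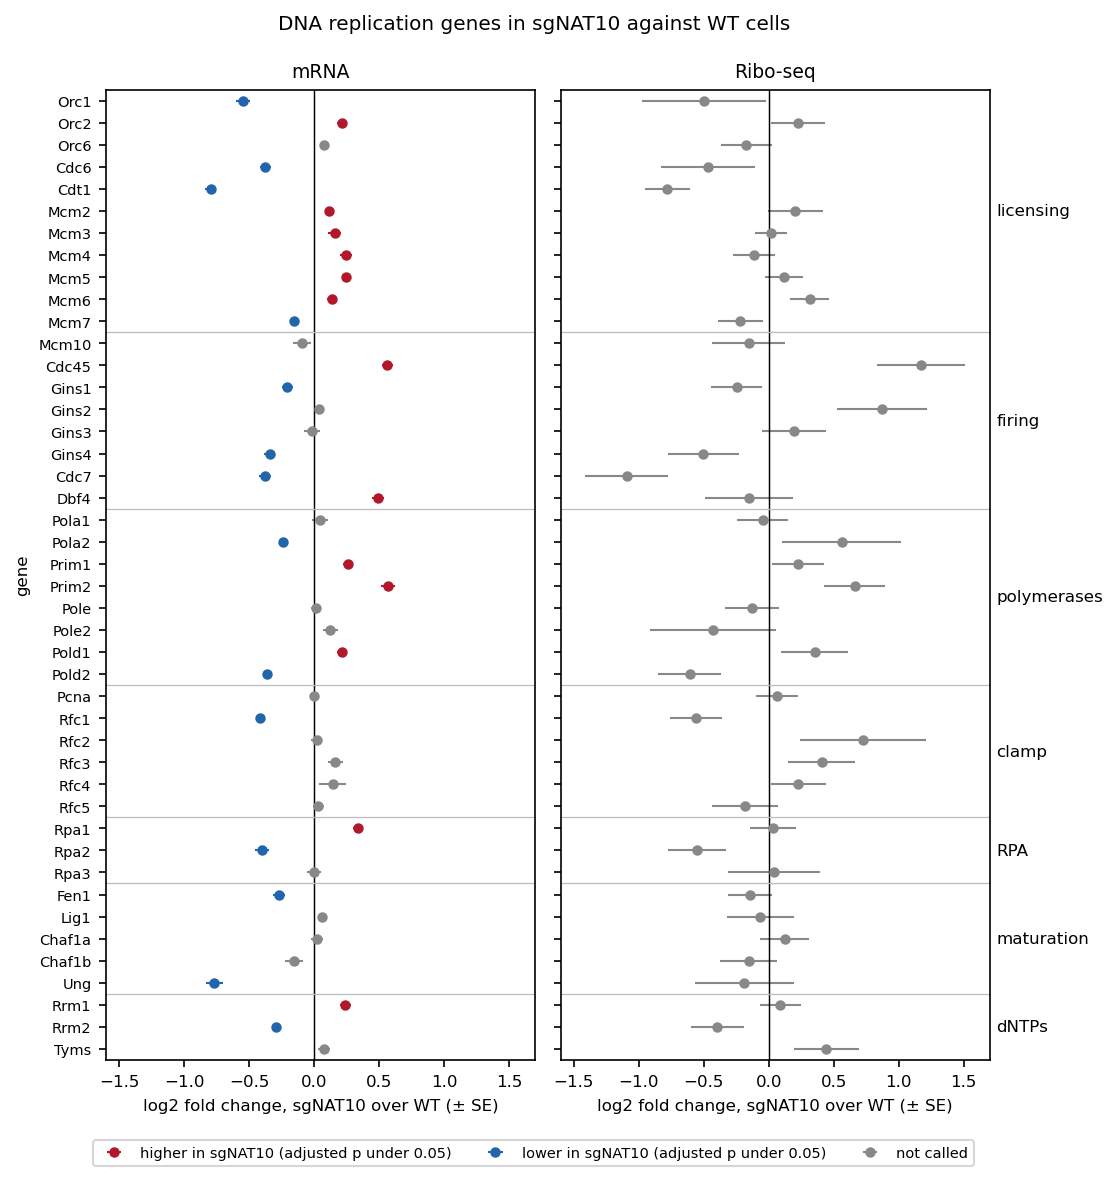
Log2 fold change of each of the 44 DNA replication genes in sgNAT10 over WT, with its standard error, in mRNA and in Ribo-seq, grouped by role from top to bottom (2 sgNAT10 and 2 WT libraries for each assay). In mRNA 13 genes are marked higher and 14 lower, and in Ribo-seq none is called and the error bars are longer.

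Calls were also counted by complex, with no share over complexes of other genes to set beside them, where 33.7% of all genes were called higher and 29.6% lower. Of 11 complexes with at least 2 subunits on the list, 7 had subunits called in both directions in sgNAT10 mRNA, which were the origin recognition complex, MCM2-7, the Cdc7-Dbf4 kinase, polymerase alpha with primase, polymerase delta, RPA and ribonucleotide reductase. GINS and replication factor C had calls in 1 direction, both lower, and polymerase epsilon and the chromatin assembly factor CAF-1 had none. Of the 27 calls, 22 held under every one of the alternatives run and 5 were lost under at least 1. The authors' deposited table lists 13 of the 44 higher and 13 lower at its own adjusted p under 0.05, beside 44.3% of its genes in either direction (22.6% higher and 21.7% lower).

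Replication and cell cycle genes outside the 44 were also mixed. Of 34 further replisome genes, 9 rose and 7 fell in sgNAT10 mRNA, beside 33.7% of all genes called higher and 29.6% called lower. The same shares stand beside the counts of the other lists in this paragraph. Pole4, a small subunit of polymerase epsilon, had 20.7 and 20.7 FPKM in sgNAT10, against 11.9 and 11.6 FPKM in WT (log2 fold change 0.77, SE 0.0364, adjusted p = 6.87e-05 by limma). Topbp1, which helps load Cdc45, had 20.8 and 21.1 FPKM in sgNAT10, against 15.8 and 15.7 FPKM in WT (log2 fold change 0.39, SE 0.0334, adjusted p = 0.000403). Both rose without overlap of the groups. Of 11 further nucleotide enzymes, 3 rose and 6 fell. Shmt1, a folate enzyme that feeds thymidylate synthesis, had 8.88 and 8.396 FPKM in sgNAT10, against 20.4 and 20.2 FPKM in WT (log2 fold change -1.15, SE 0.0424, adjusted p = 3.63e-05), and Ctps, which makes cytidine triphosphate, had 99.4 and 96.98 FPKM in sgNAT10, against 59.9 and 59.3 FPKM in WT (log2 fold change 0.71, SE 0.0289, adjusted p = 4.61e-05). Of 17 tested regulators of the entry into S phase, 7 rose and 7 fell.

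Regulators upstream of these genes did not move one way. E2f1, a transcriptional activator of S-phase genes, had 25.4 and 26.7 FPKM in sgNAT10, against 13.2 and 13.6 FPKM in WT (log2 fold change 0.91, SE 0.0415, adjusted p = 6.0e-05 by limma). E2f2 (-0.33, adjusted p = 0.00836), the cyclin gene Ccne2 (-0.55, adjusted p = 0.000401) and the kinase gene Cdk2 (-0.22, adjusted p = 0.00631) fell. Ccne1 was at 0.09 and not called. In Ribo-seq E2f1 had 4.17 and 9.37 FPKM in sgNAT10, against 7.14 and 6.82 FPKM in WT, so its footprints overlapped between the groups.

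Footprints showed no called change in any of the 44. In Ribo-seq 0 of 44 passed limma at an adjusted p under 0.05, beside 3.09% of 9707 genes tested (1.81% higher and 1.28% lower). Of the 44, 8 had an unadjusted p under 0.05, beside 20.7% of all genes tested. With edgeR on recovered reads the count was 0 higher and 1 lower, which was Cdt1. Cdt1 had 48.7 and 60.2 FPKM in sgNAT10, against 91.5 and 95.8 FPKM in WT (log2 fold change -0.78, SE 0.174, adjusted p = 0.0819 by limma), the lowest adjusted p of the 44 in this assay. Both sgNAT10 libraries were below both WT libraries, as in mRNA. The authors' deposited table lists 5 of the 44 as changed in Ribo-seq, Cdc45 and Prim2 higher and Cdt1, Cdc7 and Rfc1 lower, beside 15.1% of its genes in either direction (7.45% higher and 7.65% lower).

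The footprint values of the most changed genes were noisy. Cdc45 had 61.7 and 62.8 FPKM in sgNAT10, against 18.7 and 38.9 FPKM in WT (log2 fold change 1.17, SE 0.341, adjusted p = 0.137 by limma). The sgNAT10 libraries were close to each other and above WT, while the WT libraries differed from each other. Cdc7 had 4.96 and 3.74 FPKM in sgNAT10, against 9.402 and 11.4 FPKM in WT (log2 fold change -1.09, SE 0.322, adjusted p = 0.137), with sgNAT10 below WT and between 27 and 146 recovered reads per library. Prim2 had 26.2 and 28.01 FPKM in sgNAT10, against 14.7 and 19.1 FPKM in WT (0.66, adjusted p = 0.187), higher in both sgNAT10 libraries. Orc1 had 4.83 and 13.99 FPKM in sgNAT10, against 11.3 and 13.2 FPKM in WT, so its sgNAT10 libraries stood on either side of WT. Both sgNAT10 libraries were above both WT libraries in 12 of the 44 and below in 13, each beside 25.6% of all genes tested.

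Changes in footprints and in mRNA had the same sign in 34 of 44 genes (77.3%), near the 73.5% of all genes tested in both. The sign was the same in 24 of the 27 called in mRNA, with no share over all genes called in mRNA to set beside it. Across the 44 genes, Pearson's r between both log2 fold changes was 0.665 and Spearman's rho 0.673, beside 0.746 and 0.651 over 9200 genes tested in both. These are correlations across genes, which are not independent replicates, and both assays share the same gene lengths. The 3 called genes whose footprints had the other sign were Mcm4 (0.25 in mRNA and -0.11 in Ribo-seq), Dbf4 (0.49 and -0.15) and Pola2 (-0.24 and 0.56), none of them called in Ribo-seq.

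Translational efficiency, the change in footprints beyond that in mRNA, was called in 0 of the 44 (limma interaction of genotype and assay, 9200 genes), beside 0.261% of all genes. Of the 44, 2 had an unadjusted p under 0.05, beside 11.9% of all genes. No other tool was run for this test. The lowest adjusted p was that of Cdc7 (-0.72, adjusted p = 0.344). The result rested on the WT footprint libraries. Over the alternatives, which include leaving out each library, the change ranged from 0.10 to 1.12 for Cdc45 and from 0.44 to 1.24 for Gins2. It ranged from 0.06 to 1.53 for Pola2, from 0.10 to 1.31 for Rfc2 and from -0.55 to 0.06 for Pold2. Leaving out 1 WT Ribo-seq library leaves a single one, so calls from those fits are not read as results about these genes. Pola2 footprints had 58.8 and 58.9 FPKM in sgNAT10, against 23.4 and 66.5 FPKM in WT, so the WT libraries lay on either side of sgNAT10.

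Footprints were dense on these mRNAs in both genotypes. The ratio of footprint to mRNA FPKM had a median of 1.95 over the 44 in sgNAT10 and 1.98 in WT, beside 1.14 and 1.15 over 9200 genes. It was above the median of all genes for 34 of the 44 in sgNAT10 and 35 in WT. Rrm1 had 3.84 in sgNAT10 and 4.28 in WT, and Rfc4 had 3.95 in sgNAT10 and 3.76 in WT. At the low end Dbf4 had 0.411 in sgNAT10 and 0.659 in WT. The ratio is a level on the FPKM scale of each assay, and no test was made of it.

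Acetylated RNA peaks lay in 2 of the 44 genes (4.55%), beside 8.07% of the genes tested in sgNAT10 mRNA. Lig1 had a peak with a fold enrichment of 1.92 of precipitate over input, in exons at chr7:13307514-13308492 (mm10, + strand), in blocks of 158 and 22 bases. Mcm3 had a peak with a fold enrichment of 1.47, in exons at chr1:20805809-20806818 (mm10, - strand), in blocks of 132 and 77 bases. Both values are the authors', and by fold enrichment Lig1 stood at percentile 59.2 and Mcm3 at percentile 25.0 of the 1358 peaks listed. The deposited log2 difference between genotypes was 1.57 for Lig1 and 0.70 for Mcm3, and the header does not state which genotype is on top. Lig1 mRNA had 27.5 and 28.5 FPKM in sgNAT10, against 26.7 and 26.7 FPKM in WT, and its footprints had 46.99 and 66.4 FPKM in sgNAT10, against 69.6 and 49.002 FPKM in WT. Mcm3 mRNA had 73.6 and 67.8 FPKM in sgNAT10, against 61.8 and 64.7 FPKM in WT (0.16, adjusted p = 0.038 by limma), and its footprints had 223 and 214 FPKM in sgNAT10, against 215 and 217 FPKM in WT. There were no acRIP replicates, so no test was possible.

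Under the Myc guide the replication genes were lower almost throughout in replicates 1 and 2, while replicate 3 stood near WT. Each library was set against the mean of its 3 WT libraries on log2(FPKM + 1). The median over the 44 was -0.37 in sgMYC replicate 1, -0.38 in replicate 2 and 0.01 in replicate 3, beside -0.023, -0.023 and -0.021 over all 16794 genes tested. Replicate 1 was below all 3 WT libraries in 42 of the 44 and replicate 2 in 43, beside 43.8% and 44.0% of all genes. Replicate 3 was below all WT libraries in 18 and above them in 20, beside 42.3% and 35.7% of all genes. Replicates 1 and 2 were both below WT in 42 of the 44, beside 38.3% of all genes. In 43 of the 44 replicate 3 was above both other sgMYC libraries, beside 40.7% of all genes, and the exception was Mcm6.

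Replicate 3 differed from the other sgMYC libraries beyond these genes. The SD of the log2 ratio between libraries, over genes of at least 2000 reads, was 0.105 between sgMYC replicates 1 and 2, 0.699 and 0.697 between replicate 3 and those, and 0.137 to 0.182 among WT libraries. Of the mesenchymal markers, Col3a1 had 229, 229 and 25.1 FPKM in sgMYC, against 26.7, 28.0 and 21.5 FPKM in WT. Dcn had 15.2, 14.6 and 0.670 FPKM in sgMYC, against 0.619, 0.654 and 0.658 FPKM in WT. Thy1 went the other way, with 39.4, 38.8 and 57.5 FPKM in sgMYC, against 14.3, 12.4 and 10.8 FPKM in WT, so replicate 3 was the farthest from WT. The sum over the 8 markers of that list was 1204, 1199 and 851 FPKM in sgMYC, against 1062, 1046 and 1039 FPKM in WT. The part of these differences in the replication genes was not tested.

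**Figure D4:**
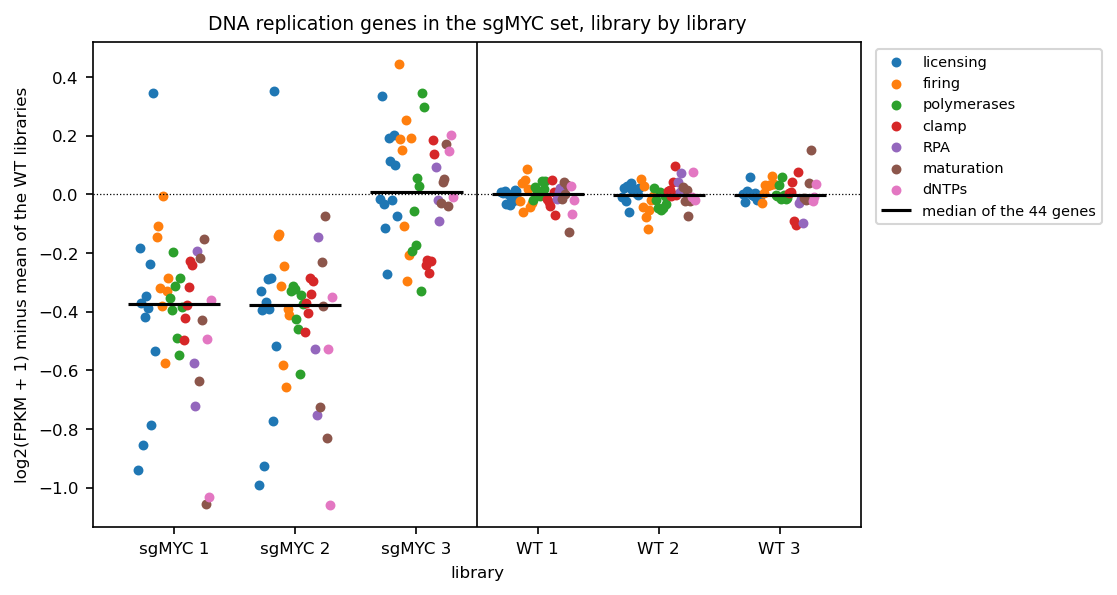
Each of the 44 DNA replication genes in each library of the sgMYC set, as log2(FPKM + 1) minus the mean of the 3 WT libraries, with 1 point a gene coloured by role and a bar at the median. The medians are -0.37 and -0.38 in sgMYC replicates 1 and 2 and 0.01 in replicate 3, and Mcm6 is the gene above WT in the first 2.

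With all 3 sgMYC libraries in the test, 7 of the 44 fell and 0 rose (edgeR quasi-likelihood, Benjamini-Hochberg over 16794 genes), beside 16.0% of all genes called in either direction, 8.86% called lower and 7.11% called higher. The 7 were Cdt1, Gins4, Pola1, Pole2, Pcna, Rfc1 and Rfc2. Among the 44, 14 had an unadjusted p under 0.05 by edgeR, beside 31.0% of all genes. DESeq2 called 1 higher (Mcm6) and 6 lower, with no share over all genes to set beside them. The median log2 fold change over the 44 was -0.26, beside -0.029 over all genes, and 41 of the 44 were below 0. All 3 sgMYC libraries were below all WT libraries in 18 of the 44 and above in 1, beside 21.7% and 16.2% of all genes. Without sgMYC replicate 3, 39 fell and 1 rose, beside 26.9% of all genes lower and 26.6% higher. Without any other single library, the count was 0.

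By role, the clamp genes held the most calls with all libraries in, 3 of 6. Rfc2, a small subunit of the clamp loader, had 10.9, 10.6 and 11.8 FPKM in sgMYC, against 14.01, 14.4 and 14.9 FPKM in WT (log2 fold change -0.38, SE 0.0803, adjusted p = 0.0269 by edgeR). Rfc1 had 13.3, 13.8 and 15.4 FPKM in sgMYC, against 17.8, 18.4 and 18.3 FPKM in WT (log2 fold change -0.36, SE 0.0875, adjusted p = 0.0411), and Pcna had 121, 124 and 145 FPKM in sgMYC, against 169.6, 173 and 172 FPKM in WT (log2 fold change -0.40, SE 0.10, adjusted p = 0.0444). In these genes replicate 3 was closer to WT than the other sgMYC libraries and still below all WT libraries. Each of these calls was lost when any 1 library other than sgMYC replicate 3 was left out.

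Licensing genes were lower in sgMYC replicates 1 and 2 than in replicate 3, with Mcm6 as the exception. Cdt1 had 30.3, 31.4 and 33.7 FPKM in sgMYC, against 40.9, 39.1 and 42.7 FPKM in WT (log2 fold change -0.36, SE 0.0829, adjusted p = 0.0335 by edgeR). All sgMYC libraries were below all WT libraries. Mcm6 had 70.6, 71.1 and 59.5 FPKM in sgMYC, against 55.9, 55.3 and 54.99 FPKM in WT, above WT in every sgMYC library, and did not pass with all libraries (0.27, adjusted p = 0.0738). It rose without sgMYC replicate 3 (0.39, adjusted p = 3.85e-06). The other MCM subunits fell without that replicate, with log2 fold changes between -0.76 for Mcm5 and -0.23 for Mcm4. Orc1 stood at -0.94 and -0.99 in replicates 1 and 2 and -0.02 in replicate 3, against the WT mean.

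Firing and polymerase genes followed the same pattern across libraries. Gins4 had 21.6, 20.4 and 26.4 FPKM in sgMYC, against 33.1, 31.4 and 33.5 FPKM in WT (log2 fold change -0.52, SE 0.126, adjusted p = 0.0401 by edgeR). Cdc7 had 11.3, 10.8 and 12.4 FPKM in sgMYC, against 13.99, 14.2 and 15.1 FPKM in WT and did not pass (-0.33, adjusted p = 0.0555). Both were below WT in all sgMYC libraries. Pole2, the second subunit of polymerase epsilon, had 12.1, 11.5 and 14.2 FPKM in sgMYC, against 18.7, 17.5 and 18.1 FPKM in WT (log2 fold change -0.52, SE 0.11, adjusted p = 0.0263), and Pola1 had 9.05, 9.204 and 10.2 FPKM in sgMYC, against 11.7, 12.02 and 11.8 FPKM in WT (log2 fold change -0.32, SE 0.083, adjusted p = 0.0492). Cdc45 was at -0.01 with all libraries and -0.10 without replicate 3, not called in either. Without replicate 3 all 8 polymerase genes and 6 of 8 firing genes fell.

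The remaining roles held no call with all libraries in. Rrm2 had 23.8, 23.4 and 57.5 FPKM in sgMYC, against 47.5, 52.6 and 49.5 FPKM in WT (-0.50, adjusted p = 0.416 by edgeR), so it was far below WT in replicates 1 and 2 and above WT in replicate 3. Ung had 0.784, 1.09 and 2.61 FPKM in sgMYC, against 2.396, 2.65 and 3.12 FPKM in WT (-0.85, adjusted p = 0.258), and Fen1 had 17.5, 16.4 and 27.3 FPKM in sgMYC, against 27.5, 28.4 and 27.6 FPKM in WT (-0.44, adjusted p = 0.21). Replicate 3 lay close to WT in both. Rpa2 had 10.3, 10.02 and 17.3 FPKM in sgMYC, against 17.7, 17.7 and 17.4 FPKM in WT and Rpa3 had 20.9, 21.6 and 22.4 FPKM in sgMYC, against 24.3, 25.3 and 22.4 FPKM in WT, and neither passed (-0.48 and -0.15). Tyms had 9.34, 9.39 and 12.2 FPKM in sgMYC, against 12.1, 12.1 and 12.6 FPKM in WT (-0.25, adjusted p = 0.259). Without replicate 3 the 3 nucleotide supply genes all fell, Rrm2 the most (-1.05, adjusted p = 1.61e-07), as did Ung (-1.50, adjusted p = 6.18e-05).

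Further replication and cell cycle genes are set beside the 8.86% of all genes called lower under the Myc guide. Of the further replisome genes 5 of 34 fell (edgeR), with the lowest p in Orc3 (-0.86) and Pole3 (-1.02). Of the further nucleotide enzymes 1 of 11 fell, which was Dck (-0.92), and of the S-phase entry regulators 6 of 17 fell. Cdk2 had 11.7, 11.2 and 12.4 FPKM in sgMYC, against 40.5, 38.9 and 46.6 FPKM in WT (log2 fold change -1.83, SE 0.105, adjusted p = 0.000554 by edgeR), low in all sgMYC libraries, replicate 3 included. Ccne2 fell (-0.67, adjusted p = 0.0253), and E2f1 (0.12), E2f2 (0.02) and Ccne1 (-0.15) were not called.

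Both edits were then compared gene by gene, with the effect in sgNAT10 mRNA minus the effect in sgMYC mRNA in 1 limma model over 10265 genes. This difference was above 0 in 9 of the 44 and below 0 in 1 at an adjusted p under 0.05, beside 14.2% and 6.78% of all genes (21.0% in either direction). The 9 were Mcm4, Cdc45, Pola1, Prim1, Prim2, Pole2, Pcna, Rfc2 and Rfc3. The single effects are given from the test of each edit, by limma for sgNAT10 and edgeR for sgMYC. Prim2 had a log2 fold change of 0.57 in sgNAT10 and -0.23 in sgMYC (difference 0.80, SE 0.176, adjusted p = 0.0148). Pole2 was at 0.13 in sgNAT10 and -0.52 in sgMYC (difference 0.62, adjusted p = 0.00913). Cdt1 was the gene with the difference below 0, at -0.80 in sgNAT10 and -0.36 in sgMYC (difference -0.44, adjusted p = 0.0136). The calls of Prim1 and Pole2 held under all 16 alternatives, and the other 8 were lost under at least 2. Without sgMYC replicate 3 the count was 32 above 0 and 2 below, beside 36.4% and 23.2% of all genes.

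With all libraries in, Cdt1, Gins4 and Rfc1 fell in both edits, which is 3 of the 14 lower in sgNAT10 and 3 of the 7 lower in sgMYC. Over all genes, 29.6% were called lower in sgNAT10 and 8.86% in sgMYC, and the share lower in both was not counted. The sgMYC calls of these 3 genes were each lost under 7 of 11 alternatives. The sign of the change was the same in 16 of the 44, beside 67.1% of 10867 genes tested in both, and Pearson's r across the 44 was 0.537 with a Spearman's rho of 0.455. The sets share no library, and r is over genes, which are not independent replicates. Without sgMYC replicate 3, 39 of the 44 were lower in sgMYC, beside 26.9% of all genes, whichever way they moved in sgNAT10. They included all 14 genes that were lower in sgNAT10 and 14 of the 17 not called there. Of the 13 that were higher in sgNAT10, 11 were lower in sgMYC, 1 was higher (Mcm6) and 1 was not called (Cdc45).

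**Figure D5:**
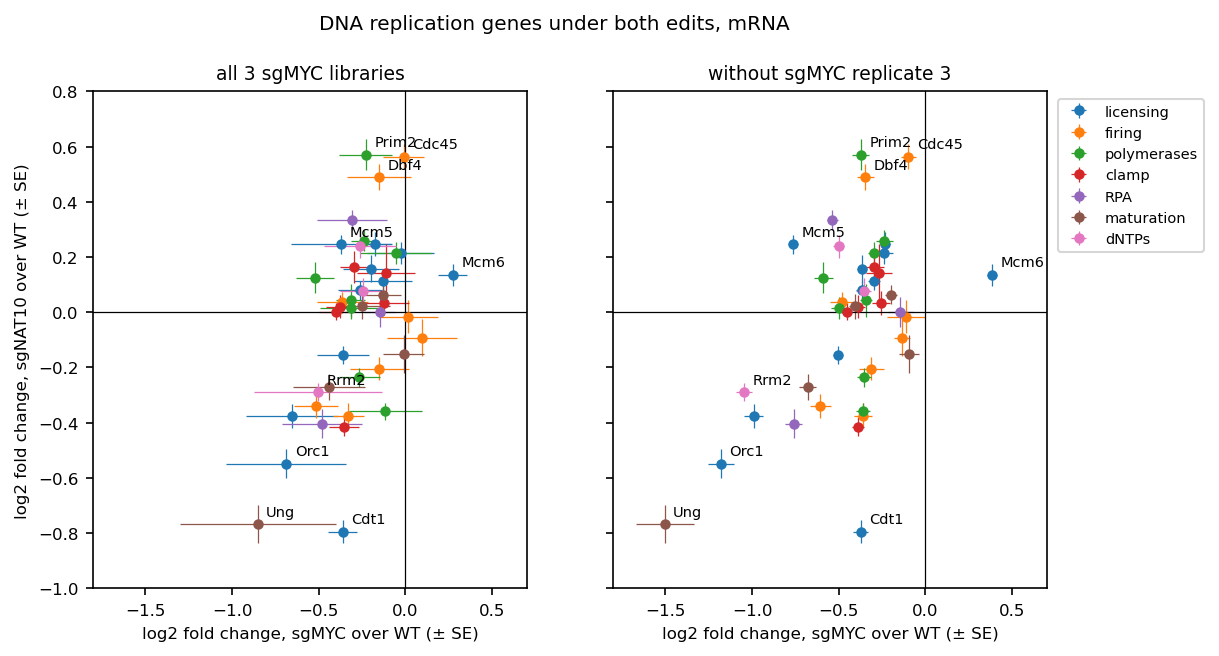
Log2 fold change in sgNAT10 over WT (vertical) against that in sgMYC over WT (horizontal) for the 44 DNA replication genes, each with its standard error, with all 3 sgMYC libraries on the left and without sgMYC replicate 3 on the right. On the right nearly all points lie left of 0, 39 of them called lower, while on the vertical axis they spread to both sides of 0.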

How the data were processed

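Tools listed in the submitters' processing notes are featureCounts, Bowtie2, Trim Galore and FastQC, with mm10 as the build and neither versions nor an order. Whole-read counts and FPKM per gene were deposited for the sgMYC set, per the file headers. The deposited tables of both sgNAT10 sets hold FPKM, scaled by the authors to a total that is not given in the sources used here. The same tables hold the authors' log2 fold changes and p-values, whose test is not named. The deposited acRIP peaks carry a fold enrichment (a ratio of precipitate over input), a log2 difference between genotypes and scores (log10 of a p-value or FDR, per the file headers). No step that would tell strands apart is stated in these sources.

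The sgNAT10 mRNA and Ribo-seq sets were tested with limma 3.58.1 (R 4.3.3, eBayes with trend) on log2(FPKM + 1) where a gene averaged 1 FPKM or more. Translational efficiency was tested as an interaction of genotype and assay, with 1 spread per gene for both assays, which can understate the error of the noisier footprints. The sgMYC counts were tested with edgeR 4.0.16 (filterByExpr, TMM, quasi-likelihood), with standard errors worked back from the p-value. The difference between the edits was the genotype by set interaction in limma on both FPKM tables, which were scaled separately. Benjamini-Hochberg adjustment ran over every gene tested in a comparison. Fold changes on log2(FPKM + 1) understate the change of low genes.

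Ratios of FPKM between libraries gave back whole reads, to within 1e-09, in 99.8% of genes for mRNA and 99.98% for Ribo-seq, as the smallest whole numbers with these ratios. They can be too low where reads share a divisor, gave the depth of those sets, and served an edgeR alternative that called 9247 genes in mRNA and 777 in Ribo-seq. Other alternatives were pseudocounts, filters, scalings, DESeq2 1.42.0, the replicate number as a block, and leaving out each library, where a lone library is assumed to vary like the rest. The scripts were tested on simulated data.

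The members and lists were chosen with earlier results of these data known. Values per library are given for the 2 genes of each role with the lowest p in each mRNA comparison, for genes with an acRIP peak and for the guide targets. They are also given for the 2 genes of each further list with the lowest p in sgNAT10 mRNA, and for Cdk2 in sgMYC. E2f2, Ccne1, Ccne2, Orc3, Pole3 and Dck are given by fold change only, as are Cdk2 in sgNAT10 and E2f1 in sgMYC. Mcm5, Cdc7 in sgNAT10, Prim2, Orc1, Cdc45 and Pola2 in Ribo-seq, Pcna, the printed promoters, Col3a1, Dcn, Thy1 and the genes named for their ribosome density were chosen after their values were seen.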

Additional observations from a re-analysis of the deposited data

Results flagged for a closer look

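The effects of the edits on mRNA differed by the interaction test (limma, Benjamini-Hochberg over 10265 genes) in 10 of the 44 genes, beside 21.0% of all genes, with sgNAT10 minus sgMYC given on the log2(FPKM + 1) scale. The difference was -0.44 for Cdt1, where the effect in sgNAT10 was the more negative. It was 0.43 for Mcm4, 0.58 for Cdc45, 0.33 for Pola1, 0.49 for Prim1, 0.80 for Prim2, 0.62 for Pole2, 0.40 for Pcna, 0.37 for Rfc2 and 0.44 for Rfc3. In each of these 9 the sgMYC effect was below 0 and the sgNAT10 effect above it, whether or not each single effect passed its own test. Some effects were near 0, with Pcna at 0.002, Rfc2 at 0.02 and Pola1 at 0.04 in sgNAT10 and Cdc45 at -0.01 in sgMYC. The signs of these effects changed under some alternatives, so opposite directions are not shown for these genes. No group had 4 or more libraries, so single libraries could not be tested as outliers, sgMYC replicate 3 included.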

How the results depend on the processing

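In sgNAT10 mRNA the counts of 13 higher and 14 lower stayed within 10 to 14 and 13 to 15 under all alternatives. In Ribo-seq edgeR on recovered reads gave 1 lower. For translational efficiency, leaving out 1 library gave 0 to 1 lower and 0 to 4 higher. In sgMYC, no filter on low counts gave 1 lower and DESeq2 1 higher. Leaving out 1 library gave 0 to 39 lower and 0 to 1 higher, with 39 and 1 without sgMYC replicate 3. For the difference between the edits, leaving out 1 library gave 2 to 32 higher and 0 to 2 lower, with 32 and 2 without sgMYC replicate 3, 2 higher without WT replicate 2 or sgNAT10 replicate 2 and 3 higher without WT replicate 1 or sgNAT10 replicate 1 of the sgNAT10 set, and 5 higher without WT replicate 1 of the sgMYC set. With peaks of at least 2 times the lowest fold enrichment, 0 genes had a peak. These causes were not tested, beyond the fewer libraries.

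Replicate numbers in the labels did not pair libraries, since deviations of same-numbered libraries correlated at 0.024 or less in size. With the replicate number as a block, sgNAT10 mRNA gave 12 higher and 14 lower, Ribo-seq and translational efficiency 0 each, sgMYC 0 lower and the difference 3 higher and 1 lower.

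No called gene reversed its direction under any alternative run. Among genes not called, the sign changed under at least 1 alternative in 9 of 17 for sgNAT10 mRNA, 13 of 44 for Ribo-seq, 20 of 44 for translational efficiency, 10 of 37 for sgMYC and 8 of 34 for the difference. Calls over all genes moved by over 1.5 times in 4 comparisons, at 300 in Ribo-seq against 0 to 777 under the alternatives, 24 in translational efficiency against 1 to 640, 2682 in sgMYC against 680 to 9368 and 2153 in the difference against 1136 to 6115. Ribo-seq depth limits the footprints, with between 27 and 146 recovered reads per library for Cdc7. The 11 reads recovered in a library for Pole2 may be too low, since reads that share a divisor are reduced.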
